A study of Mus musculus with 2 samples.

Results

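The miR-200 family comprises mmu-miR-200a, mmu-miR-200b, mmu-miR-429, mmu-miR-200c and mmu-miR-141. The members were taken by name among the non-control spots of the arrays, and they were 5 of the 696 mouse miRNAs measured. MiRNA levels were compared between 2 tissues of the embryo, the developing 3rd mammary gland and, as its neighbour, the inter mammary gland region, which is the flank lying between glands 3 and 4. Both tissues came from untreated ICR embryos at E13.5, and 100 ng of total RNA of each was labelled with Cy3 and hybridised to 1 array. The arrays lay on the same slide and were scanned together. The number of embryos behind each RNA sample is not given in the sources used here.

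A mammary bud at this stage is a bulb of ectodermal epithelium surrounded by condensed mesenchyme, whereas the flank between buds holds surface ectoderm, dermal mesenchyme and the tissue beneath. The miR-200 family is known for its abundance in epithelial cells. Its members repress the transcription factors Zeb1 and Zeb2, which in turn repress the adhesion gene Cdh1 (E-cadherin) and the miR-200 genes themselves, so that the miRNAs and the Zeb factors hold each other in check.

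All 5 members were detected in both regions, and all 5 gave a higher signal in the 3rd mammary gland. The excess was modest, with gland to flank ratios from 1.15 for miR-141 to 1.43 for miR-200a and a median of 1.30. The signal is the background-subtracted intensity of a spot, and gland signals were divided by 1.094 for every ratio which made the arrays equal at the 75th percentile over probes detected in both regions. A miRNA counted as detected when, for at least 1 of its probes, more than 50% of the spots were well above background by the scanner software. With 1 array per region no test between the regions was possible, and the errors below describe the spots within an array, not the spread between embryos. Because whole pieces of tissue were used, more cells carrying a miRNA and more miRNA per cell cannot be told apart.

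The members were measured far above background. Each member had 2 probes of 10 spots each, so that 100 spots per array belonged to the family. After outlier spots flagged by the software were removed, 100 spots were left for the gland and 98 for the flank, and every one of them was well above background. The dimmest family spot read 164 in the gland, where the brightest negative control spot read 17.3. In the flank the dimmest family spot read 134 against 19.2 for the brightest negative control spot. At all 98 array positions kept in both regions, the scaled signal was higher in the gland. These positions are repeat spots of the same probes on the same arrays, so they restate the ratios of the probes. The share of such positions over all miRNAs was not computed.

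miR-200a is 1 of the 2 members with the seed AACACUG, and its gene lies between those of its cluster partners. On its first probe, the 10 gland spots read 928 at the lowest, 1005 at the median and 1098 at the highest, with a mean of 1005.7 ± 54.3 (SD over spots). The 10 flank spots of that probe ran from 636 through a median of 674 to 702, with a mean of 671 ± 21.5. The gland and flank spots were fully separated, before as well as after scaling. On the second probe the gland spots had a lowest value of 337, a median of 363, a highest value of 385 and a mean of 364 ± 16.2. The matching flank spots lay between 193 and 215 with a median of 209.8 and a mean of 208 ± 6.21. These spots did not overlap either, and the ratio was 1.37 by the first probe and 1.60 by the second. The mean of both probes gave miR-200a the highest ratio of the family, 1.43 (log2 0.51 ± 0.022, SE over spots).

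miR-200b carries the other seed, AAUACUG, and is a member classically tied to repression of the Zeb factors. Its first probe read 939.8, 1007 and 1109.8 at the lowest, median and highest gland spot, with a mean of 1012 ± 60.2. In the flank the same probe gave 634, 671 and 699.9, with a mean of 671 ± 18.7. No gland spot of this probe fell into the flank range. The second probe ran from 1700.4 to 2180.4 in the gland, with a median of 1955 and a mean of 1965 ± 182. In the flank it ran from 1258 to 1602, with a median of 1417 and a mean of 1427 ± 125. After scaling, the lower gland spots of the second probe reached into the flank range. The ratios were 1.38 and 1.26 by the first and second probe, and 1.30 for miR-200b as a whole (log2 0.37 ± 0.040).

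miR-429 completes the cluster of miR-200a and miR-200b and shares the seed of miR-200b. The first probe gave gland spots of 945 at the lowest, 1048 at the median and 1096 at the highest, with a mean of 1036 ± 56.3. The flank spots of that probe gave 609, 724 and 816, with a mean of 717 ± 62.9. Gland and flank spots were separated. For the second probe, gland spots lay between 819 and 1168 with a median of 967 and a mean of 959.9 ± 118. Its flank spots lay between 588 and 743, with both the median and the mean at 666 (SD 50.3). Separation held on this probe too, and both probes gave a ratio of 1.32, as did their mean (log2 0.40 ± 0.040).

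miR-200c, encoded in the other cluster, also has the seed AAUACUG. In the gland, its first probe read 428 at the lowest spot, 510.2 at the median and 559 at the highest, with a mean of 506 ± 44.9. In the flank, 8 spots of this probe were left, reading 325, 353 and 371 with a mean of 351 ± 14.2. All gland spots exceeded all flank spots here. The second probe spanned 686 to 939.6 in the gland, with a median of 795 and a mean of 793 ± 75.7. It spanned 522 to 654 in the flank, with a median of 577 and a mean of 585 ± 49.7. The scaled spots of the second probe overlapped between the regions. Its ratio was 1.24 against 1.32 for the first probe, and miR-200c as a whole stood at 1.27 (log2 0.34 ± 0.040).

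miR-141 is the cluster partner of miR-200c and the seed partner of miR-200a. Its first probe read 164, 182 and 194 at the lowest, median and highest gland spot, with a mean of 181 ± 10.5. The flank spots of this probe read 134, 140.1 and 150.3, with a mean of 141.1 ± 5.79. Once scaled, the lowest gland spot fell just below the highest flank spot. The second probe gave 376, 462 and 509 in the gland, with a mean of 449 ± 48.3. It gave 303, 352 and 396 in the flank, with a mean of 358 ± 29.3. Here the ranges overlapped more widely, and the ratios of 1.18 and 1.15 were the lowest of the 10 probes. miR-141 therefore had the lowest ratio in the family, 1.15 (log2 0.21 ± 0.045).

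**Figure D1:**
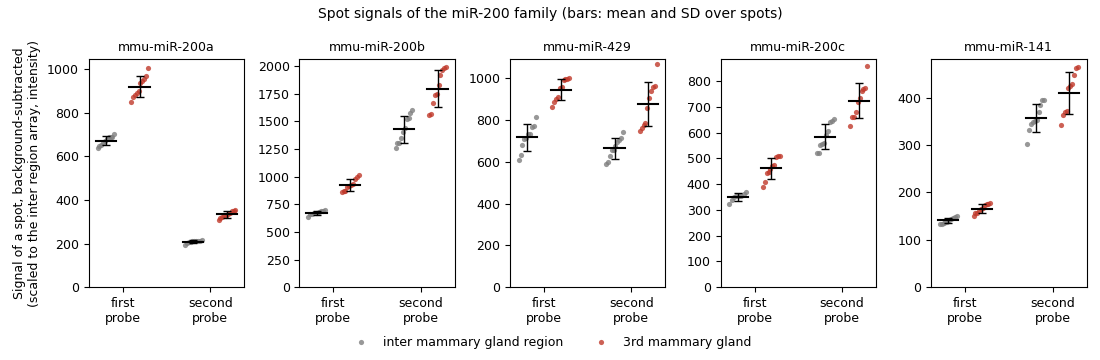
Background-subtracted signal of every kept spot (vertical axis, intensity, gland values scaled to the flank array) for the first and second probe of each member (horizontal axis), with grey points for the inter mammary gland region and red points for the 3rd mammary gland, drawn from the lowest to the highest spot. Black lines are the mean and SD over spots, and in 6 of the 10 probes the scaled gland spots lie above all flank spots. The share of all probes on the arrays with such separation was not computed, so the 6 are not a trait of the family.

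Ordered by ratio, miR-200a came first, followed by miR-429, miR-200b, miR-200c and miR-141. Little of this order was resolved. miR-429 exceeded miR-200b by 0.024 in log2 ratio (SE over spots 0.057), and miR-200b exceeded miR-200c by 0.031 (SE 0.057). The gaps at the ends were wider, with miR-200a above miR-429 by 0.11 (SE 0.046) and miR-200c above miR-141 by 0.14 (SE 0.060). Between miR-200a and miR-141 the gap was 0.30 (SE 0.050). Probes of the same miRNA also disagreed, by 0.22 in log2 ratio for miR-200a, 0.13 for miR-200b and 0.088 for miR-200c. The gap for miR-200a exceeded its lead over miR-429. For miR-141 the gap between probes was 0.037 and for miR-429 it was 0.0024. With the lower-numbered probe of each member alone, miR-200b (0.46) and not miR-200a (0.45) had the highest log2 ratio, while miR-141 was lowest with the lower-numbered as with the higher-numbered probes. The median gap was 0.088 for the family and 0.083 over the 244 miRNAs with 2 or more probes detected in both regions, the family included. For a miRNA with more than 2 such probes, the gap was that between its highest and lowest probe. Gaps of about this size between members were thus within the disagreement of probes.

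Against the other miRNAs on the arrays, the family lay in the upper part of the distribution without standing at its top. Of the 696 miRNAs, 296 were detected in the gland, 300 in the flank and 284 in both. The median log2 ratio of these 284 was 0.05 (quartiles -0.14 and 0.22), whereas that of the family was 0.37 ± 0.040, the value and SE over spots of its middle member miR-200b. All 5 members lay above the median of all miRNAs and 4 of them above the upper quartile, with miR-141 the exception. From the highest ratio downwards, miR-200a ranked 13 of 284, miR-429 ranked 22, miR-200b ranked 28, miR-200c ranked 33 and miR-141 ranked 80. The family median exceeded the median of all miRNAs by 0.33 in log2 ratio, or 1.25-fold, a distance that no single scaling factor can change.

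No member was 1.5-fold or more higher in the gland, a level passed by 6 of the 284 miRNAs (2.11%). In the opposite direction, 26 miRNAs (9.15%) were at least 1.5-fold lower in the gland, and no member was among them. Simply being higher in the gland was common, applying to 164 miRNAs (57.7%), and the 5 of 5 members on that side are to be read against this share. The scaling mattered for these counts. Without any scaling 15 miRNAs (5.28%) were at least 1.5-fold higher and 23 lower, the median of all miRNAs moved from 0.05 to 0.18, and miR-200a alone of the family passed the threshold with a ratio of 1.56. Unscaled ratios of the other members were 1.44 for miR-429, 1.42 for miR-200b, 1.39 for miR-200c and 1.26 for miR-141.

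The total signal per miRNA computed by the scanner software, which comes with an error of its own, was built from the same spots and is given without scaling. For miR-200a the total was 907 ± 71.1 in the gland and 569 ± 45.8 in the flank. For miR-200b it was 1972 ± 147 against 1359 ± 103. miR-429 read 1321 ± 94.0 against 896 ± 63.8. In the chromosome 6 pair, miR-200c read 860.3 ± 62.8 against 606 ± 44.6, and miR-141 read 417 ± 32.6 against 323 ± 25.5. The ratios of these totals ran from 1.29 for miR-141 to 1.59 for miR-200a, in the same order as the spot values.

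The family is encoded in 2 clusters, each thought to be transcribed as a common precursor. In the mouse genome (RefSeq, GRCm38.p6), the hairpins of Mir429 (chr4:156053905-156053987), Mir200a (chr4:156054896-156054985) and Mir200b (chr4:156055681-156055750) lie on the minus strand of chromosome 4 within 1846 bases. All 3 fall inside the annotated long non-coding RNA gene Gm13648. Mir141 (chr6:124717914-124717985) and Mir200c (chr6:124718322-124718390) lie on the minus strand of chromosome 6 within 477 bases, and no other annotated gene overlaps their hairpins. The mean log2 ratio was 0.43 ± 0.020 for the chromosome 4 cluster (1.35-fold) and 0.27 ± 0.030 for the chromosome 6 cluster (1.21-fold). The difference of 0.15 exceeded its SE over spots of 0.036. That SE leaves out the disagreement between probes of the same miRNA, which ran from 0.0024 for miR-429 to 0.22 for miR-200a. With both probes averaged, each chromosome 4 member had a higher ratio than each chromosome 6 member. The closest pair, miR-200b and miR-200c, differed by less than the SE, so the split by cluster rested on miR-200a at one end and miR-141 at the other. Probe by probe the split did not hold, with log2 ratios of 0.33 for the second probe of miR-200b and 0.40 for the first of miR-200c.

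The seed, bases 2 to 8 of a miRNA, pairs with target mRNAs and divides the family differently from the clusters. The mature sequences are shown to set the seeds against the ratios, with the seed in capitals. They were taken from RefSeq, where 5 of 5 members matched an entry for the strand from the 3′ arm of the hairpin. The first pair carries AACACUG.
mmu-miR-200a: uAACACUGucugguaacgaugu
mmu-miR-141: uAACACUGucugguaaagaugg
The remaining 3 members carry AAUACUG.
mmu-miR-200b: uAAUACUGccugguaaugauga
mmu-miR-200c: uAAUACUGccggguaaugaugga
mmu-miR-429: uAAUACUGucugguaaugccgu
Counted from 1 at the 5′ end, the seeds differ only by C4U from miR-200a to miR-200b. Among the 1679 mouse mature miRNA names in the table, AACACUG was found in 2 and AAUACUG in 3, which were the family members themselves.

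With both probes of each member averaged, the seed classes did not differ beyond the error over spots under the main processing. The probes taken singly disagreed. The mean log2 ratio was 0.36 ± 0.025 (1.28-fold) for AACACUG and 0.37 ± 0.023 (1.29-fold) for AAUACUG. Their difference of 0.013 was smaller than its SE over spots of 0.034. Still with both probes, it was 0.041 with normexp and 0.037 with quantile normalization, each in favour of AAUACUG and slightly above that SE. With the lower-numbered probe of each member alone it was 0.076 in favour of AAUACUG, and with the higher-numbered probe it was -0.092, in favour of AACACUG, so its direction depended on the probe. The classes differed in their inner spread, since AAUACUG members lay between 1.27 and 1.32 whereas AACACUG joined the highest and the lowest ratio of the family. miR-200a and miR-141 are nonetheless near-identical molecules, matching at 20 of 22 bases and differing by C17A and U22G. miR-200b and miR-200c, 1 from each cluster, likewise match at 20 of the first 22 bases and differ by U11G and A22G. All other pairs of members match at 17 or 18 of 22 bases. The probe sequences were not used here, and whether a probe also read a close relative was not tested.

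Passenger strands, the opposite arms of the hairpins that are mostly degraded after processing, were represented on the array for 4 members, and none passed the spot rule for detection in either region. miR-200a* read 8.39 in the gland and 9.43 in the flank, with 0 and 1 of its 20 spots well above background. miR-200b* read 12.3 and 8.99, with 2 and 1 spots well above background. The passenger strands of the chromosome 6 pair had no such spot, at 1.59 and 1.30 for miR-200c* and 8.46 and 5.21 for miR-141*. Negative control spots averaged 3.81 ± 5.28 in the gland and 2.23 ± 5.07 in the flank, and no ratio is given for strands that did not pass the rule. miR-200b* was the least clear of them, since 1 of its probes averaged 25.2 ± 7.12 in the gland and 21.9 ± 6.88 in the flank (SD over 5 spots), with 5 and 2 spots above the brightest negative control spot of the array. The software's own call differed for miR-200b* alone, which it called detected in both regions, at a total of 8.35 ± 2.09 in the gland and 7.10 ± 1.95 in the flank.

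Other miRNAs of epithelial cells differed among themselves. The list held miR-203 and miR-205, known from stratified epithelium, and the cluster of miR-183, miR-96 and miR-182, known from sensory epithelia. None of the 5 was 1.5-fold different in either direction after scaling, and their median log2 ratio was 0.40 against 0.05 for all miRNAs. Without scaling, 2 of the 5 passed 1.5-fold, miR-96 at 1.61 and miR-182 at 1.52, as miR-200a did in the family. These 2 belong to the same cluster, and 5.28% of all miRNAs passed that level without scaling. Only some of them resembled the family. miR-96 (1.47-fold), miR-182 (1.39-fold) and miR-183 (1.31-fold) had ratios near those of the family. miR-205 was almost equal between the regions (log2 -0.021 ± 0.024), and miR-203, which restrains proliferation in skin, had a lower signal in the gland (log2 -0.31 ± 0.029). Summed over the list, the scaled signal was 7964 in the gland and 7858 in the flank, most of it from miR-205.

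Markers of other tissues also differed between the dissected pieces. The striated muscle list had the clearest difference, with all 4 of its miRNAs at least 1.5-fold lower in the gland and a median log2 ratio of -1.24. Of all 284 miRNAs detected in both regions, 26 (9.15%) were at least 1.5-fold lower. miR-1 stood at 0.46 of its flank level, miR-133a at 0.43, miR-133b at 0.42 and miR-206 at 0.37. The summed scaled muscle signal was 1504 in the gland and 3610 in the flank, with miR-133b the brightest. These muscle miRNAs were thus lower in the same sample in which the miR-200 family was higher, and their part in the family ratios was not tested.

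Mesenchymal miRNAs, known from connective tissue, had ratios that depended on the scaling. Of 10 on the list 8 were detected in both regions and miR-145 and miR-222 in neither, although the software called miR-222 detected in both. None of the 8 passed 1.5-fold, and 7 had a ratio above 1, as did 57.7% of all miRNAs. The exception, miR-221, had a ratio of 0.77 (log2 -0.38), after scaling further from equality than any of the 7. Without scaling this did not hold, with miR-221 at 0.84 and miR-199a-3p at 1.36. The median log2 ratio of the list was 0.22 against 0.05 for all miRNAs. It was 0.35 without scaling, where all miRNAs stood at 0.18, and 0.44 with quantile normalization, where all miRNAs stood at 0.17 and the miR-200 family at 0.47. miR-199a-3p, the brightest, had a ratio of 1.25 and its neighbour in the genome miR-214 one of 1.20. The summed scaled signal of the list was 35644 in the gland and 30440.0 in the flank. The part of mesenchymal content in the family ratios was not tested.

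In the blood list 5 of 6 miRNAs were detected in both regions and 0 passed 1.5-fold, while miR-142-5p was detected in neither by the spot rule and in both by the software call. Their median log2 ratio was -0.06, a sign that changed with the processing (from -0.12 to 0.099 over the alternatives tried, 0.07 without scaling). The red cell miRNA miR-451 gave most of the summed signal, which was 5699.8 scaled in the gland and 4351 in the flank, and its own ratio was 1.36, within the range of the family. Both endothelial strands, miR-126-3p and miR-126-5p, were detected, with a median log2 ratio of 0.13 and summed signals of 1974 and 1896. In the neural list miR-124, miR-9, miR-9* and miR-137 did not pass the spot rule for detection in either region. The software's own call placed miR-137 (29.9 ± 5.81) and miR-9 (13.1 ± 4.07) as detected in the gland and not in the flank, and their mean spot signals were 22.6 and 9.73 for miR-137 and 15.6 and 6.92 for miR-9, gland first. The remaining miR-128 had a log2 ratio of -0.57. Scaled signals summed over the neural list were 175 in the gland and 216 in the flank. The part of blood, vessel or nerve content in the family ratios was not tested.

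**Figure D2:**
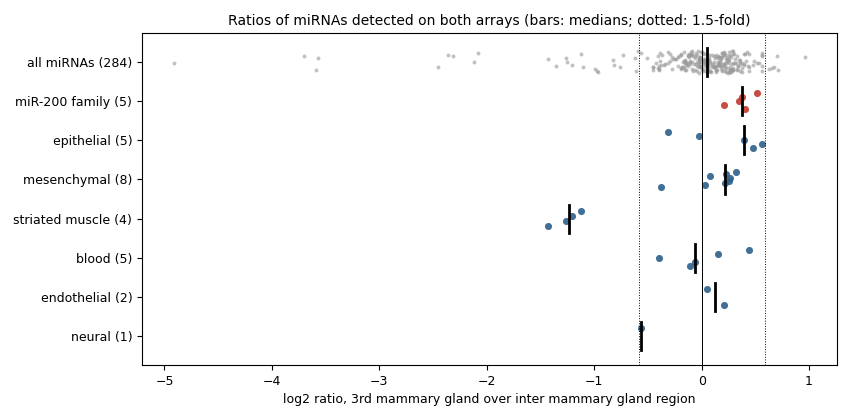
Log2 ratio of the 3rd mammary gland over the inter mammary gland region (horizontal axis) for each miRNA detected in both regions, in rows for all 284 miRNAs, the miR-200 family and the lists of epithelial, mesenchymal, striated muscle, blood, endothelial and neural miRNAs, with the number of miRNAs in brackets. Black bars are medians and dotted lines mark 1.5-fold. The 5 family members sit between 0.21 and 0.51, to the right of the median of all miRNAs and inside the dotted lines, while the 4 muscle miRNAs sit beyond the left dotted line. Scaling shifts all points together, and without it miR-200a and the epithelial miR-96 and miR-182 pass the right dotted line and the blood median, whose sign changed with the processing, turns positive.

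The miRNAs whose log2 ratio came closest to the family median were miR-193 (0.38), miR-369-3p (0.38), miR-10a (0.39), miR-431* (0.36) and miR-26b (0.36). This likeness covers only 2 arrays, and miR-431* had a wide error (SE over spots 0.12). Above miR-200a, 12 other miRNAs had a higher ratio, led by miR-2141 at 1.95, miR-690 at 1.63 and miR-181a at 1.62, names chosen here after their values were seen. The epithelial miR-96 was 1 of these 12.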

How the data were processed

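Total RNA of each tissue (3rd mammary gland, inter mammary gland region) was measured on 1 Agilent 1-colour miRNA array each. Samples were assigned to regions from their labels. The authors quantified the scans with Feature Extraction (version 10.7.3.1 per the file headers), and the deposited intensity of each spot is background-subtracted and not normalized between arrays. The deposited value table equalled the software's total signals at 1392 of 1392 values, with 0.1 standing for a miRNA not called detected.

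Among the 14635 spots of an array, 13920 carried 1937 probes to 696 miRNAs. Of these, 38.1% were well above background on each array, none was saturated, and outliers (1.67% in the gland, 2.51% in the flank) were left out. Kept spots of a probe were averaged, the gland array was scaled to the flank array by the 75th percentile over jointly detected probes, and a miRNA was the mean of its probes. Ratios are the gland over the flank. SEs were propagated from the SD over spots, the SE of a median being that of its middle miRNA, and 1 array per region limits the precision. The number of sample columns left unused was 0.

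Named miRNAs were all 5 members, their passenger strands, the lists of cell type miRNAs, and the 5 other miRNAs with the log2 ratio closest to the family median. The leading miRNAs among those with a ratio above miR-200a were named in addition, after their values were seen. The members and lists were chosen with earlier results of these data known, and the comparison of probes of the same miRNA was added after the values were seen. Alternatives changed the scaling, signal, background correction, detection rule, filter, outliers, probes and threshold. Python 3.11.15, numpy 2.4.6, pandas 2.3.3, matplotlib 3.10.9, R 4.3.3 and limma 3.58.1 (normexp, offset 50) were used.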

Additional observations from a re-analysis of the deposited data

How the results depend on the processing

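In 14 of 14 alternatives all 5 members were above a ratio of 1 and above the median of all miRNAs, the latter being fixed by construction under a single scaling factor. The members moved relative to each other in 6 of the 14. The other alternatives applied a common factor, altered the set of miRNAs detected or used totals of the same spots, left the gaps between members as they were (within 0.001 in log2 ratio), and so say nothing on the order. In the 6, every chromosome 4 member exceeded every chromosome 6 member, by as little as 0.0026 in log2 ratio, and miR-141 was lowest. miR-200a was highest in 5 of the 6, miR-200b being highest with the lower-numbered probe of each member.

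The family median of 0.37 became 0.53 when the 75th percentile was taken over all probes, 0.50 without scaling, 0.49 with the median of detected probes and 0.47 with quantile normalization. It became 0.33 with higher-numbered probes or the brightest probe and 0.31 when every spot had to be well above background. Relative to the median of all miRNAs, the 0.33 became 0.28 with higher-numbered probes.

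At 1.5-fold, 1 member in place of 0 passed without scaling, when scaled over all probes, with the median of detected probes and with higher-numbered probes. Over all miRNAs the split of 6 higher and 26 lower of 284 became 19 and 22 when scaled over all probes, 15 and 23 with the median of detected probes, 14 and 22 with quantile normalization and 2 and 18 with normexp, also of 284. Other alternatives changed that number too. The software call gave 13 and 33 of 323 miRNAs, and the software totals, which bring that call with them, 18 and 38 of 323. Requiring every spot to be well above background gave 4 and 26 of 276, and leaving out the dimmest miRNAs 4 and 20 of 213. In the lists, miR-96 and miR-182 passed 1.5-fold higher without scaling, when scaled over all probes and with the median of detected probes, and miR-96 with quantile normalization. miR-451 did so when scaled over all probes and with quantile normalization. miR-128 passed 1.5-fold lower with the software totals or the deposited table and with every spot well above background. Where they moved, the 4 muscle miRNAs stayed past 1.5-fold lower. The cluster difference of 0.15 became 0.22 with higher-numbered and 0.12 with lower-numbered probes, the highest and lowest values over the alternatives. The seed difference of 0.013 became -0.092 with higher-numbered and 0.076 with lower-numbered probes, opposite in sign. It became 0.041 with normexp and 0.037 with quantile normalization, both above its SE over spots of 0.034. With the brightest probe it was 0.022 and with outlier spots kept 0.0062, both below that SE. Where a value moved, the cause was not tested. No paired analysis was possible because there was a single array for either tissue.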
